A study of Mus with 9 samples.

Results

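The replication-dependent histone genes are described here in mouse bone marrow cells that carry the AML1-ETO fusion and a retroviral CCND2 construct. They were taken as every protein-coding gene of the deposited count table whose symbol starts with Hist1h, Hist2h, Hist3h or Hist4h, which gave 67 of the 54532 genes listed. The study compared 3 groups of 3 libraries. Fetal liver cells of embryonic day 12.5 from a conditional AML1-ETO knock-in mouse, whose fusion carries an mCherry tag, were infected with a bicistronic MSCV-IRES-EGFP retrovirus that was empty (Vec), carried wild-type CCND2 (CCND2wt) or carried CCND2 with threonine 280 changed to alanine (CCND2mut). Cells positive for mCherry and GFP were injected with supportive cells into lethally irradiated C57BL/6 mice, and bone marrow cells were sequenced, so AML1-ETO and the irradiated host are common to all groups, the controls included. The sources used here give neither the species of the CCND2 insert nor whether the sequenced marrow was sorted again, and marrow of such a host can hold supportive and host cells. The labels do not say that each library is a separate mouse, so a p-value covers no more than the spread among libraries, which may be technical.

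Histones are the proteins around which DNA is wrapped: pairs of H2A, H2B, H3 and H4 form the core of the nucleosome, and H1 binds the linker DNA between cores. Most genes for them sit in clusters, lack introns and are transcribed in S phase, when newly made DNA must be packed. Their RNAs end in a stem-loop in place of a poly(A) tail, are cut there by a complex that contains the U7 small nuclear RNA, are bound by the stem-loop binding protein Slbp, and decay when DNA synthesis ends. Some of these genes also make a polyadenylated RNA, which non-dividing or differentiating cells can contain. How much histone RNA a library holds therefore depends on whether RNA without poly(A) was kept, and the selection step of these libraries is not given in the sources used here.

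The level of these RNAs was low in every library. The 67 genes held 84791 reads over the 9 libraries, or 0.0276% to 0.0764% of the reads of a library, whose totals ran from 15043755 to 17593634. A single gene, Hist1h1c, took 60.6% of those reads, and the 5 genes with the most reads took 81.9%. The median gene had a mean of 0.984 CPM (counts per 1000000 reads of the library, after scaling by the trimmed mean of M-values). Of the 67, 33 had a mean of at least 1 CPM and 6 of at least 10 CPM, 12 stayed under 10 reads in every library, and 7 had no read. The filter on low counts, which asks for about 0.600 CPM in as many libraries as a group has, left 48 genes for the tests. Only 16 of these 48 reached that level in all 3 Vec libraries and 32 did not, so many entered the tests through the CCND2 groups, and a count over the 48 is no measure of all 67.

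The library CCND2mut 2 stood apart. The 7SK RNA Rn7sk, an abundant small nuclear RNA made without poly(A), was at 30.8 CPM (462 reads) in CCND2mut 2 and at 0.598 to 2.44 CPM in the other 8 libraries. Genes annotated as ribosomal RNA summed to 2401 CPM in it and to 255 to 423 CPM in the others. Those annotated as small nuclear RNA did not stand out: they summed to 57.1 CPM in it and to 39.2 to 86.1 CPM in the others. These RNAs were looked at after the data were seen. Mast cell and basophil markers, 10 genes, summed to 11336 CPM in CCND2mut 2 and to 1494 and 2905 CPM in CCND2mut 1 and 3. Tests of CCND2mut are therefore given with and without CCND2mut 2, and the part of these RNAs and of cell makeup in the histone values was not tested. Vec 1 had 1.51% haemoglobin and 0.588% immunoglobulin reads. The targeted gene, counted as mouse Ccnd2, was at 76.2, 79.0 and 86.2 CPM in Vec, at 7.30, 9.29 and 11.1 CPM in CCND2wt and at 12.6, 58.2 and 51.1 CPM in CCND2mut, so it was lower in the libraries labelled CCND2wt and CCND2mut than in those labelled Vec. Directions below hold for the libraries as labelled.

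Of the families, H1 had 6 genes (5 tested), H2A 18 (10 tested), H2B 18 (15 tested), H3 12 (7 tested) and H4 13 (11 tested). By genome position (mm10) 54 lay in the Hist1 cluster on chromosome 13, 10 in Hist2 on chromosome 3, 2 in Hist3 on chromosome 11 and 1, Hist4h4, on chromosome 6. The Hist1 genes fell into blocks separated by at least 100000 bases: 18 genes at chr13:21715763-21837530, 5 at chr13:22035164-22043676, 29 at chr13:23531050-23764406 and 2 at chr13:23933773-23934851. That last pair, Hist1h2aa and Hist1h2ba, encodes the testis forms of H2A and H2B, and neither had a read. The testis linker histone Hist1h1t had 7 reads in all. The other genes without a read, Hist2h2aa1, Hist2h2aa2, Hist2h3c1, Hist2h3b and Hist2h2bb, all lie in the Hist2 cluster, where near-identical copies can share reads, and how the authors counted reads that match several places is not given in the sources used here. In 12 places an H2A and an H2B gene lay head to head with at most 500 bases between them.

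**Figure D1:**
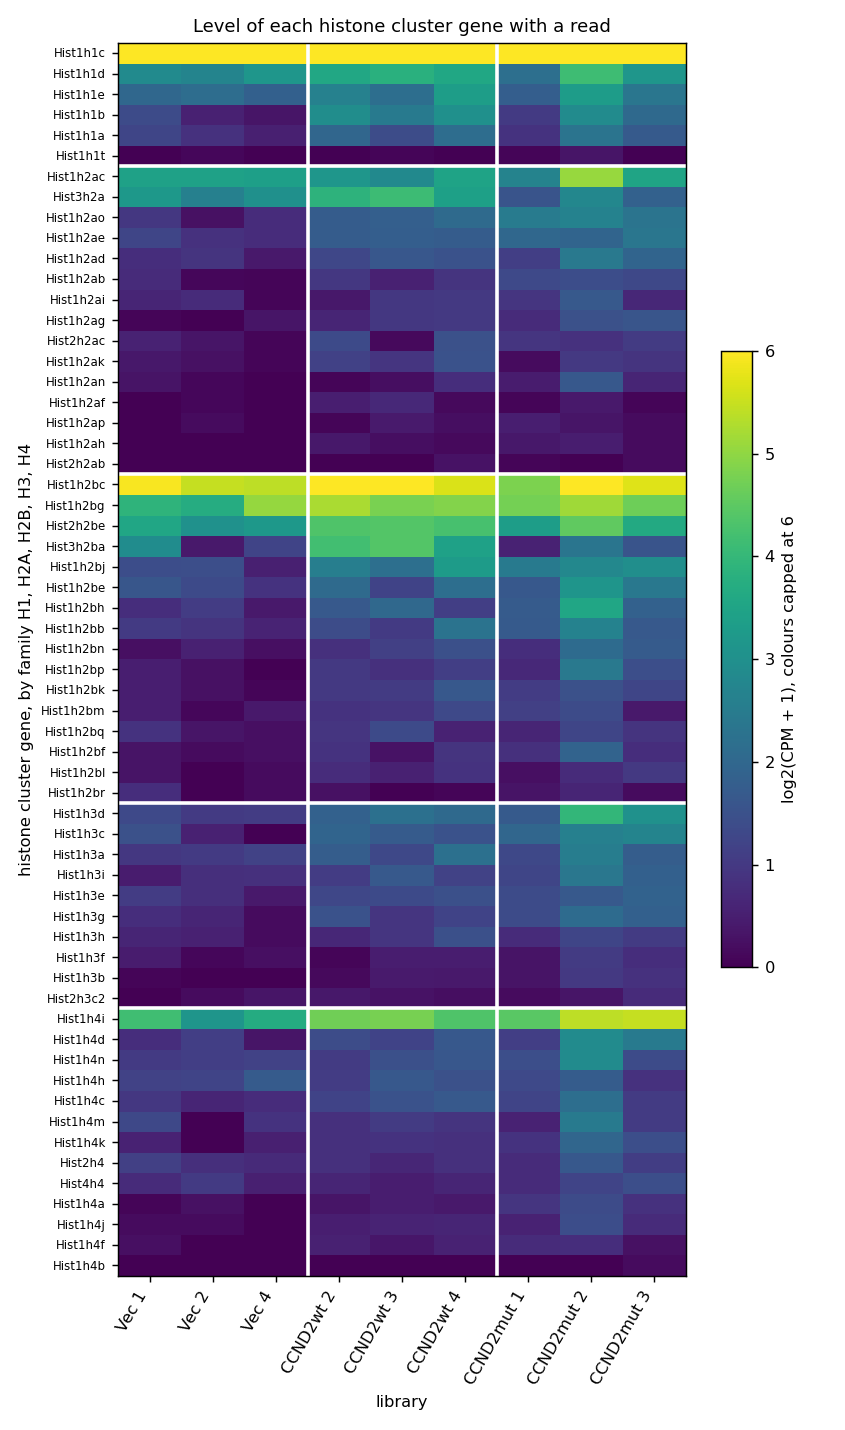
Level of the 60 histone cluster genes with a read, as log2(CPM + 1) with the colour capped at 6, in the 9 libraries (columns) and by family (rows, highest mean first; white lines part families and groups). Hist1h1c and Hist1h2bc lead the H1 and H2B families, most other rows are dark, and CCND2mut 2 holds the highest value of 35 of the 60 genes.

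Per kilobase of the gene model given in the file, the highest mean levels were 223 CPM for Hist1h1c, 49.9 for Hist1h2bc, 42.3 for Hist1h2bg, 32.6 for Hist1h4i and 11.1 for Hist3h2ba. These per-length levels rest on the models: the file gives Hist1h1c 1560 bases and Hist1h1d 7425 bases, where RefSeq (GRCm38.p6) gives 725 and 776. Lengths in the file ran from 312 to 7425 bases with a median of 539, and 18 genes exceeded 1000 bases, longer than an intronless stem-loop histone RNA. The data hold counts per gene only, so which end of a model the reads cover was not measured.

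Hist1h1c (ENSMUSG00000036181, chr13:23738808-23740367, plus strand), which encodes linker histone H1.2, was at 384, 338 and 546 CPM in Vec, at 414, 463 and 165 CPM in CCND2wt and at 134, 438 and 249 CPM in CCND2mut. The groups overlapped, with 1 low CCND2wt library and 1 high CCND2mut library. No difference passed the test: log2 fold changes were -0.28 (SE 0.482) for CCND2wt against Vec and -0.63 (SE 0.484) for CCND2mut against Vec, with adjusted p of 0.721 and 0.305 (edgeR's quasi-likelihood test with Benjamini-Hochberg adjustment over 15660 genes, used throughout). Without CCND2mut 2 the second value was -1.14. Because Hist1h1c dominates any sum, the other 66 genes were summed without it.

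The other 66 genes together were at 168, 117 and 139 CPM in Vec, at 269, 265 and 246 CPM in CCND2wt and at 153, 419 and 248 CPM in CCND2mut. All CCND2wt libraries lay above all Vec libraries (259.9 ± 12.5 against 141.5 ± 25.7 CPM, mean ± SD, n = 3 each), while CCND2mut 1 lay within the Vec range and CCND2mut 2 above every other library. The CCND2mut mean was 273 ± 135 CPM, and 200 CPM without CCND2mut 2. No p is given for these sums.

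**Figure D2:**
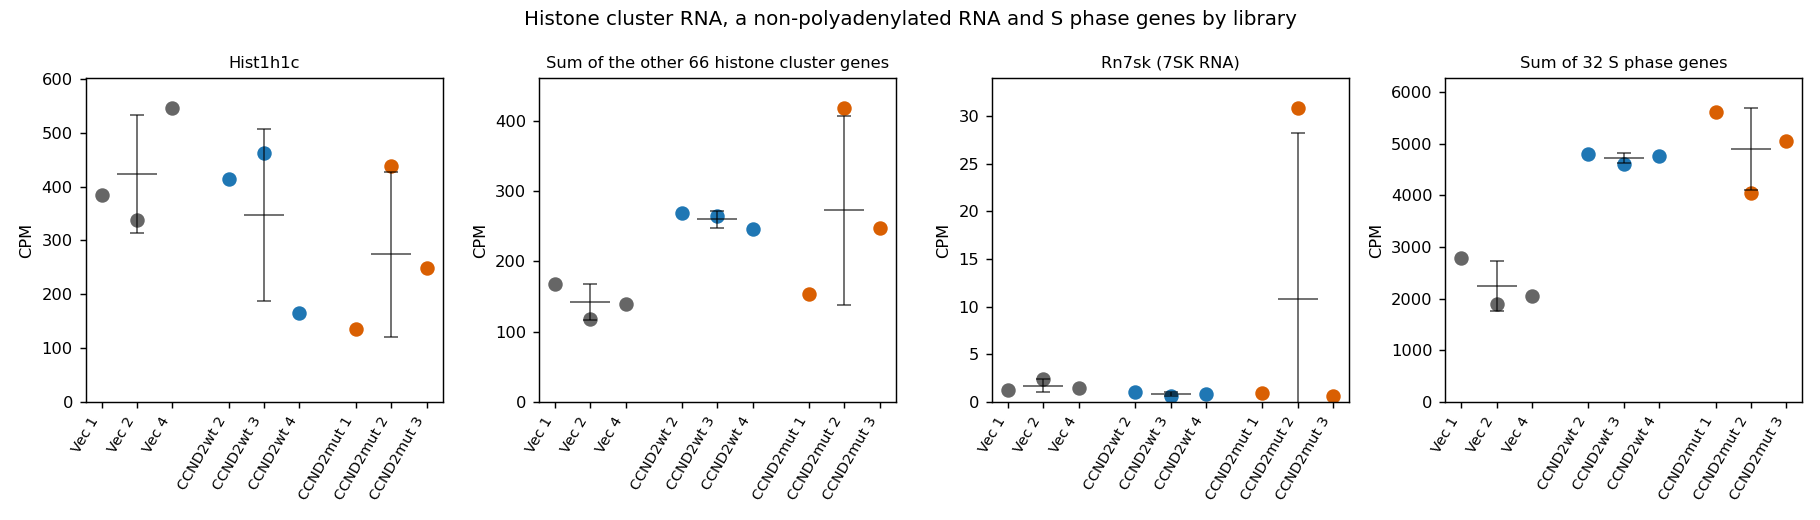
Hist1h1c, the sum of the other 66 histone cluster genes, the 7SK RNA Rn7sk and the sum of 32 S phase genes, each in CPM by library (points), with group mean ± SD in black (n = 3; the lower end of a bar is not drawn below 0). CCND2mut 2 is the highest CCND2mut library in the first 3 panels and the lowest one, at 4045 CPM, in the S phase panel.

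The question of the comparison of CCND2wt with Vec was what wild-type CCND2 changes in AML1-ETO marrow. Of the 48 tested histone genes, 8 rose and 0 fell, where 9.71% of all tested genes were called higher and 9.05% lower. At an unadjusted p under 0.05, 28 were higher and 0 lower. DESeq2 called 11 higher and limma-voom 9, and both called 0 lower. Here and below, the shares of all tested genes are those of edgeR at the adjusted threshold. None is given for unadjusted, DESeq2 or limma-voom counts, so how far these exceed the general rate cannot be read. The median log2 fold change of the 48 was 1.35, against -0.04 over all tested genes. Since 32 of the 48 missed the filter level in a Vec library, entry through the CCND2 groups can raise this median. No median is given for the 16 that reached that level in every Vec library. Among the 22 histone genes averaging 2 CPM or higher the median was 1.17, though not all of these reached that level in every Vec library. Of the 16 that had reached the filter level in every Vec library, 2 were among the 8 called, near the 9.71% of all tested genes. The other calls were of genes that missed that level in a Vec library. In all 8 the CCND2wt and Vec libraries did not overlap, which adds no support, since these genes were picked by their p. The share of all tested genes without overlap was not counted.

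Among linker histones Hist1h1b (H1.5, chr13:21779883-21780625, minus strand) rose. It was at 1.57, 0.475 and 0.256 CPM in Vec, at 6.67, 4.53 and 7.10 CPM in CCND2wt and at 1.03, 6.41 and 3.12 CPM in CCND2mut. The CCND2wt libraries lay well above Vec, by 2.97 on the log2 scale (SE 0.783, adjusted p = 0.0333 by edgeR). The other 4 tested H1 genes did not pass.

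Of the H2A genes, which encode the core partner of H2B, 4 of 10 rose. Hist1h2ao (chr13:21810465-21810944, plus strand) had the smallest p, at 0.966, 0.204 and 0.705 CPM in Vec and 2.33, 2.55 and 3.19 CPM in CCND2wt, a log2 fold change of 2.08 (SE 0.472, adjusted p = 0.0187 by edgeR). Its Vec values rest on 3 to 16 reads, its CCND2wt values on 44 to 58. Hist1h2ae, Hist1h2ak and Hist1h2ag rose by log2 fold changes of 1.31, 2.75 and 2.87.

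Of the H2B genes 3 of 15 rose. Hist2h2be (chr3:96221119-96223738, plus strand), a gene with a long polyadenylated RNA known from non-dividing cells, was at 10.7, 7.20 and 8.14 CPM in Vec, at 19.2 ± 1.08 CPM (SD, n = 3) in CCND2wt and at 9.05, 22.4 and 11.5 CPM in CCND2mut. Its rise in CCND2wt was 1.14 on the log2 scale (SE 0.328, adjusted p = 0.0429 by edgeR), with tight CCND2wt values. Hist1h2bk and Hist1h2bj rose by 2.56 and 2.17. By edgeR 0 of 7 H3 and 0 of 11 H4 genes passed, with medians of 1.37 and 0.95. At an unadjusted p under 0.05, 6 and 4 of them were higher and 0 lower. DESeq2 called 0 and 1, and limma-voom 0 and 0.

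This set of calls turned on single libraries: edgeR called 0 without CCND2wt 2 and 0 without CCND2wt 4 (17 and 15 higher at an unadjusted p under 0.05, with 0 lower), 1 without CCND2wt 3, 2 without Vec 2, 3 without Vec 4 and 11 without Vec 1. None of the 8 was called in all 6 fits that leave out a Vec or CCND2wt library, and Hist1h2bj was called in 4 of them.

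For CCND2mut against Vec, which asks what the substituted protein changes, 27 of the 48 rose and 0 fell, where 24.9% of all tested genes were called higher and 26.9% lower. At an unadjusted p under 0.05, 30 were higher and 0 lower. DESeq2 called 28 higher and limma-voom 22, both 0 lower. The median was 1.73, against -0.03 over all tested genes, and entry through the CCND2 groups can raise it here too. Among the 22 histone genes averaging 2 CPM or higher it was 1.51. Of the 16 tested genes that had reached the filter level in every Vec library, 5 were among the 27, not far above the 24.9% of all tested genes. The other calls were of genes that missed that level in a Vec library. Groups did not overlap for 24 of the 27, again among genes picked by their p and without a share over all tested genes. Without CCND2mut 2, 17 rose and 1 fell, the median of the 48 was 1.43, and the background was 23.2% higher and 25.1% lower.

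Each core family had members that rose: 5 of 10 H2A, 9 of 15 H2B, 6 of 7 H3 and 6 of 11 H4 genes, beside 1 of 5 H1 genes. Of all tested genes 24.9% were called higher. Without CCND2mut 2 the numbers higher were 5, 5, 4 and 3 for the core families and 0 for H1 (0 higher and 1 lower at an unadjusted p under 0.05), where Hist1h1b went from 2.17 (adjusted p = 0.0427) to 1.41 (adjusted p = 0.155 by edgeR). In that fit 1 H2A gene, Hist3h2a, fell. Of all tested genes 23.2% were then higher and 25.1% lower, so the H4 share of 3 of 11 lay near that of all tested genes.

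Hist1h2ao again had the smallest p. At 4.67, 5.27 and 3.92 CPM its CCND2mut libraries lay above all others, and CCND2mut 2 did not stand out. The log2 fold change over Vec was 2.86 (SE 0.478, adjusted p = 0.00138 by edgeR), and 2.74 without CCND2mut 2.

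Hist1h4i (chr13:22040636-22041362, minus strand), the H4 gene with the most reads, was at 17.0, 7.74 and 11.9 CPM in Vec, at 25.2, 26.3 and 19.4 CPM in CCND2wt and at 21.0, 41.3 and 43.7 CPM in CCND2mut. All CCND2mut libraries exceeded all Vec libraries, here with CCND2mut 3 as the highest. The rise was 1.53 on the log2 scale (SE 0.349, adjusted p = 0.00635 by edgeR), and 1.40 without CCND2mut 2. H4 is the core histone that pairs with H3.

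Hist1h3d (chr13:23575763-23577011, plus strand), an H3 gene, was at 1.51, 1.02 and 1.09 CPM in Vec, at 2.65, 3.63 and 3.14 CPM in CCND2wt and at 2.25, 14.8 and 7.17 CPM in CCND2mut. Here CCND2mut 2 was far above the rest. The rise over Vec was 2.73 (SE 0.612, adjusted p = 0.00583 by edgeR), and 1.95 without that library.

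The largest fitted rises were in genes with few Vec reads, Hist1h2ag by 3.71 and Hist1h4a by 3.57 (3.54 and 3.20 without CCND2mut 2). Hist1h4a had 1, 3 and 0 reads in Vec and 15, 24 and 12 in CCND2mut, so the size of its rise is uncertain. Among genes under the filter, Hist1h2ah had 0 reads in Vec, 11 in CCND2wt and 13 in CCND2mut, at least 3.14-fold and at least 4.37-fold higher against a floor of 3 reads over the group. Hist1h3b, also untested, had 1 read in Vec and 31 in CCND2mut, a ratio of 31.3 with a 95% counting interval of 5.21 to 1274, which covers counting error only. Its CCND2mut reads were 4, 15 and 12 in CCND2mut 1, 2 and 3, so the library that stood apart held the most.

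Of the 27 calls, 15 were made in all 6 fits that leave out a Vec or CCND2mut library. Among them were Hist1h2ao, Hist1h4i, Hist1h3d, Hist1h2ag, Hist1h2bj and Hist1h4a.

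**Figure D3:**
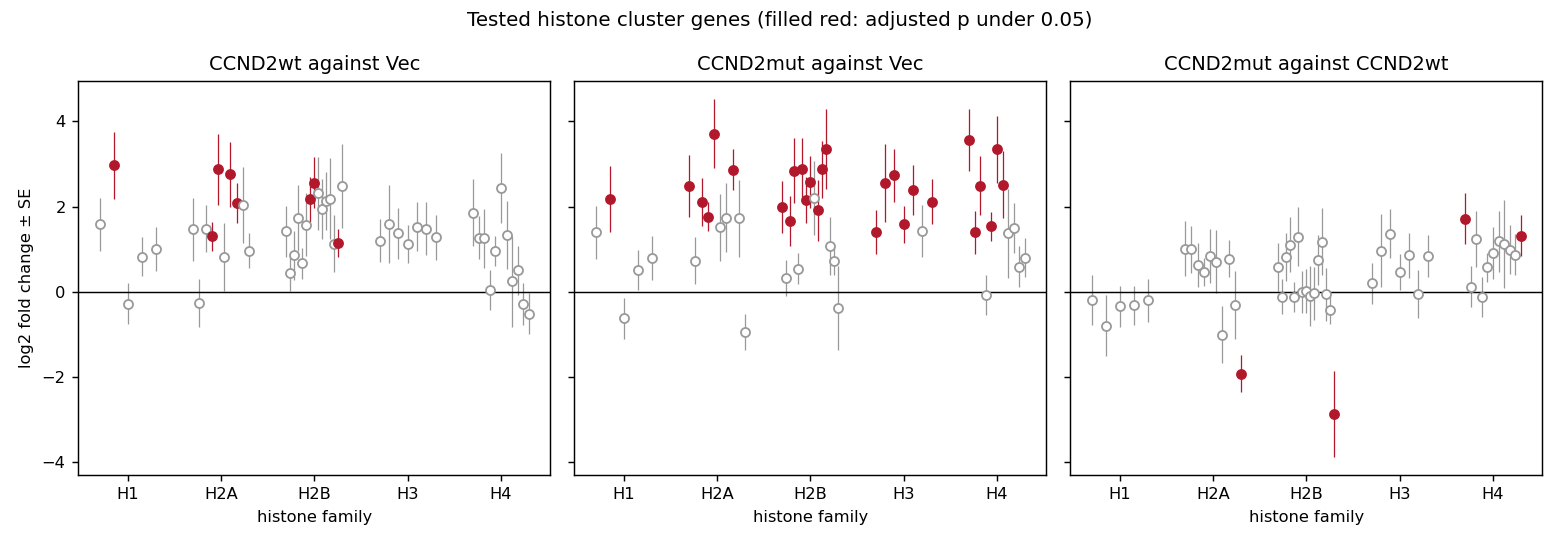
Log2 fold change ± SE (edgeR) of the 48 tested histone cluster genes by family in the 3 comparisons; filled red points have an adjusted p under 0.05. H1 to H4 on the x axis are the families. In the first panel 8 points are red and in the second 27, all above 0; in the third 2 are red above 0 and 2 below.

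**Figure D4:**
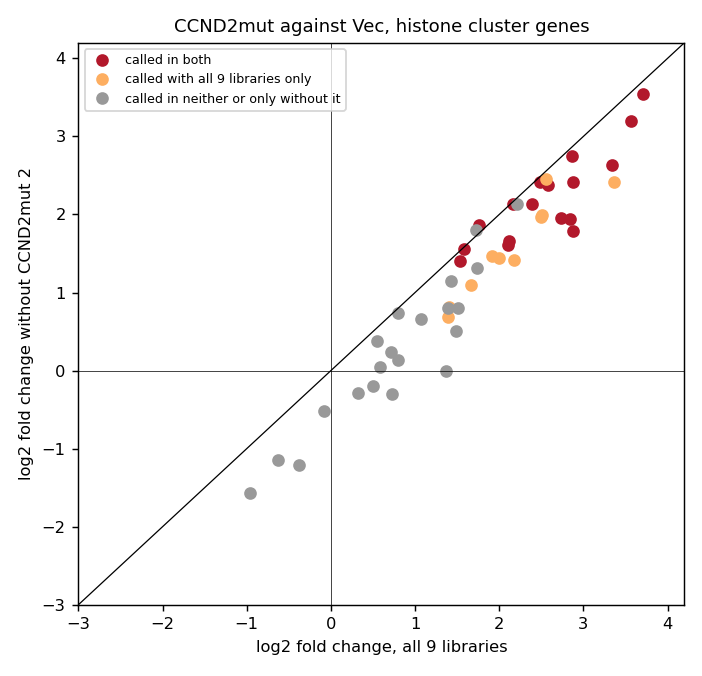
Log2 fold change of CCND2mut against Vec for the 48 tested genes with all 9 libraries (x axis) and without CCND2mut 2 (y axis); the diagonal marks equal values. Without that library 46 of the 48 values are smaller, 17 calls are shared, 10 are lost and 1 (Hist3h2a, lower) is gained.

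The comparison of CCND2mut with CCND2wt was designed around the substitution, but these libraries also differed in Ccnd2 counts and in cell markers. A difference can therefore not be ascribed to the substitution alone. Here 2 of the 48 rose and 2 fell, where 23.2% of all tested genes were called higher and 23.8% lower. The median was 0.58, against 0.02 over all tested genes, and -0.03 without CCND2mut 2, when 0 rose (0 also at an unadjusted p under 0.05, by edgeR) and 4 fell against a background of 20.5% and 23.2%. DESeq2 and limma-voom each called 1 higher and 2 lower with all libraries.

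Both genes that fell form the Hist3 pair on chromosome 11. Hist3h2a (chr11:58954685-58956830, plus strand), an H2A gene with a known polyadenylated RNA, was at 8.15, 5.09 and 7.05 CPM in Vec, at 13.7, 16.4 and 9.63 CPM in CCND2wt and at 1.94, 5.88 and 2.66 CPM in CCND2mut. The CCND2mut libraries lay below every CCND2wt library, by -1.92 on the log2 scale (SE 0.429, adjusted p = 0.00626 by edgeR), and by -2.56 without CCND2mut 2.

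This was the 1 call of the comparison made in all 6 fits that leave out a CCND2wt or CCND2mut library. Against Vec, Hist3h2a was at -0.96 in CCND2mut (adjusted p = 0.0881), and at -1.56 (adjusted p = 0.00817 by edgeR) without CCND2mut 2. The whole gene model of Hist3h2a, 2146 bases, lies within Trim17 on the same strand, so reads of the pair may not be told apart.

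Hist3h2ba (chr11:58948920-58949533, plus strand), its H2B neighbour, was at 6.58, 0.340 and 1.35 CPM in Vec, at 17.1, 19.9 and 9.74 CPM in CCND2wt and at 0.486, 4.01 and 1.93 CPM in CCND2mut. The CCND2wt libraries were higher than all others. The difference from CCND2mut was -2.86 (SE 1.01, adjusted p = 0.0459 by edgeR), and was called in 1 of the 6 fits, that without CCND2mut 2, where it was -3.72. Against Vec, where Vec 1 was far above the other Vec libraries, CCND2wt was at 2.49 (adjusted p = 0.113), and at 4.21 without Vec 1.

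The 2 that rose were H4 genes near the filter. Hist1h4a rose by 1.72 (SE 0.595, adjusted p = 0.0416 by edgeR) and Hist4h4 by 1.32 (SE 0.471, adjusted p = 0.0465), from 0.397 to 0.550 CPM in CCND2wt to 0.668 to 1.73 CPM in CCND2mut for the latter. Without CCND2mut 2 they were at 1.32 (adjusted p = 0.154) and 1.23 (adjusted p = 0.110).

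**Figure D5:**
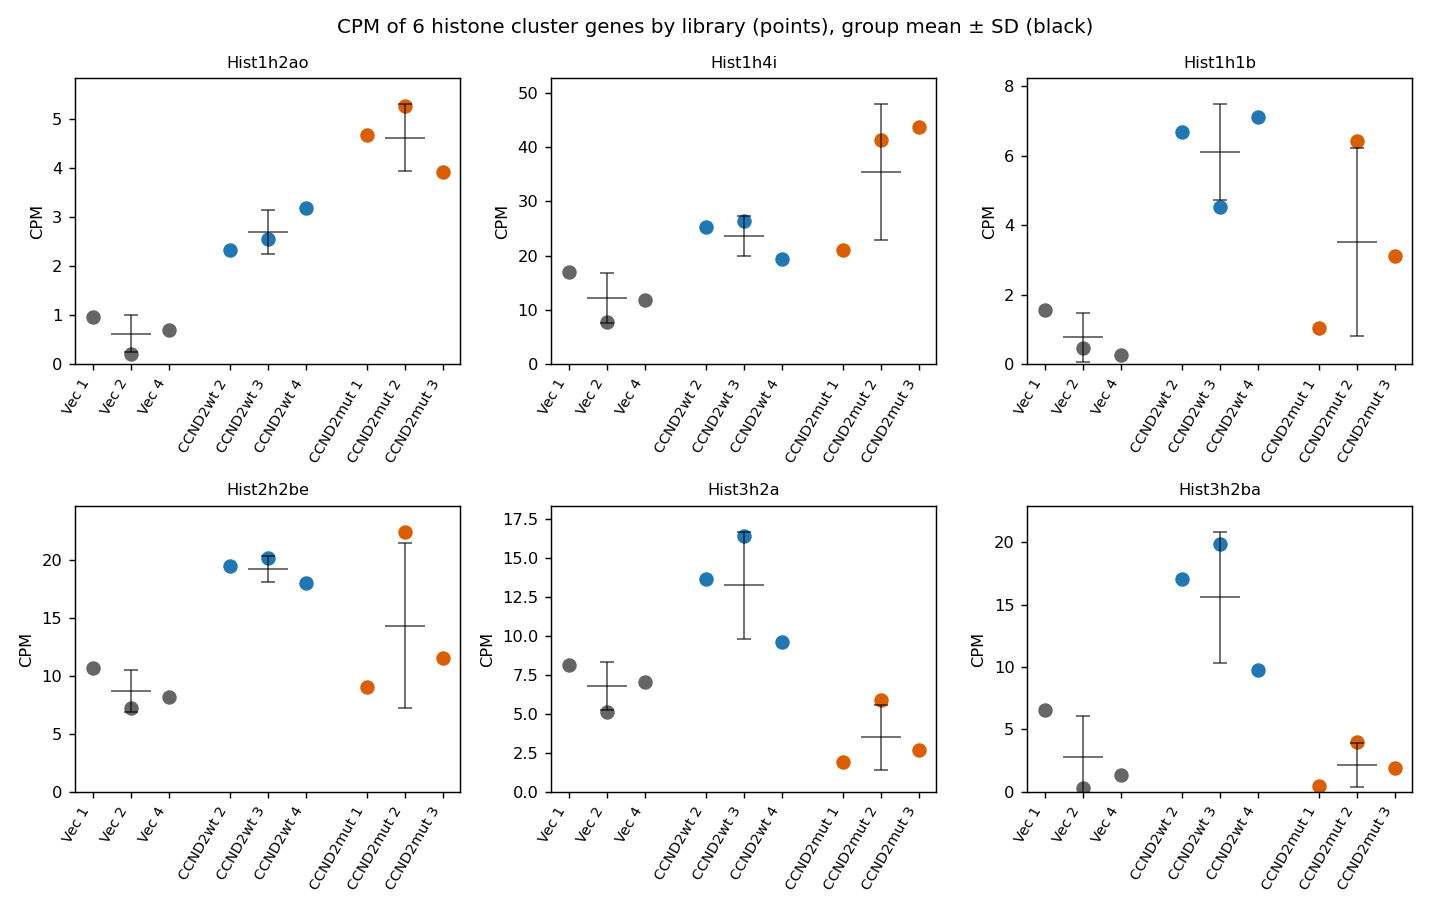
CPM by library (points) of 6 histone cluster genes, with group mean ± SD in black (n = 3). Hist1h2ao is ordered Vec, CCND2wt, CCND2mut without overlap; Hist3h2a and Hist3h2ba are highest in the CCND2wt libraries; CCND2mut 2 is the highest CCND2mut library in all panels but Hist1h4i.

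The genes with a known polyadenylated RNA were set beside the rest. They were Hist1h1c, Hist1h2bc, Hist2h2be, Hist3h2a and Hist3h2ba, all tested. For CCND2mut against Vec 0 of the 5 passed in edgeR (0 also at an unadjusted p under 0.05), DESeq2 or limma-voom. Of the other 43 tested genes 27 rose, where 24.9% of all tested genes were called higher. All of the 5 but Hist3h2ba had reached the filter level in every Vec library, while only 5 of the 27 had. The counts of these sets are therefore not like for like. Without CCND2mut 2 Hist3h2a fell and 0 of the 5 rose. The 43 had a median log2 fold change of 1.91, which entry through the CCND2 groups can raise, as it can their CCND2wt median below. That of the 5, -0.38, is the value of Hist3h2ba and changed with single libraries: it was 0.52 without Vec 1, 0.10 without CCND2mut 1, -1.14 without CCND2mut 2 and 0.0025 in limma-voom. In CCND2wt against Vec 1 of the 5 rose (3 at an unadjusted p under 0.05) with a median of 0.97, and 7 of the other 43 rose with a median of 1.42. Of all tested genes 9.71% were called higher there. Hist1h2bc was at 60.2, 43.1 and 41.1 CPM in Vec, 70.4, 74.6 and 49.8 CPM in CCND2wt and 27.4, 101 and 51.5 CPM in CCND2mut, with overlap throughout and no call. The other 62 genes summed to 61.5 to 82.9 CPM in Vec, 134 to 158 CPM in CCND2wt and 114, 285 and 180 CPM in CCND2mut, so that for this sum both CCND2 groups lay above Vec also without CCND2mut 2 (147 CPM). The difference between the 5 and the rest was not tested, and the rest may hold genes with polyadenylated RNAs too. The models of Hist1h2be and Hist1h2bp hold 4446 of 37455 and 706 of 1753 spanned bases, as for spliced RNAs. Both genes were called higher in CCND2mut against Vec with all 9 libraries. Without CCND2mut 2 neither passed, at log2 fold changes of 1.09 and 2.42 (adjusted p = 0.149 and 0.0573 by edgeR).

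In the head-to-head pairs, an H2A and an H2B gene are transcribed away from a common stretch between them. Hist1h2ag and Hist1h2bj, 269 bases apart, both rose in both CCND2 groups against Vec. In CCND2wt, Hist1h2ag was called in 1 of the 6 fits that leave out a Vec or CCND2wt library, and Hist1h2bj in 4. Hist1h2bf and Hist1h2ad, 184 bases apart, both rose in CCND2mut against Vec, by 2.84 and 2.10 (1.94 and 1.60 without CCND2mut 2). In other pairs 1 partner was called and the other not: Hist1h2ae rose in both CCND2 groups, while Hist1h2bg was at 13.9, 12.2 and 32.2 CPM in Vec and at 24.7 to 37.0 CPM in the other libraries. The CCND2wt call of Hist1h2ae was likewise made in 1 of the 6 fits that leave out a Vec or CCND2wt library. The difference between partners was not tested. In all, 24 of the 67 genes overlap another gene model, mostly an antisense microRNA model inside an H2A gene, and the strand setting of the counting is not given in the sources used here.

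Genes that work with histone RNA and protein were read from lists, whose counts stand beside the 9.71% higher and 9.05% lower of all tested genes in CCND2wt against Vec and the 24.9% and 26.9% in CCND2mut against Vec. Of 23 genes for histone transcription, 3′ processing and decay, 4 rose and 0 fell in CCND2wt against Vec by edgeR (8 higher and 0 lower at an unadjusted p under 0.05), and 12 rose and 1 fell in CCND2mut against Vec (11 and 0 without CCND2mut 2). DESeq2 called 7 and limma-voom 5 of them higher in CCND2wt, both 0 lower. Slbp, which binds the stem-loop, was at 91.7, 66.6 and 39.8 CPM in Vec, at 107, 95.6 and 98.8 CPM in CCND2wt and at 126, 100 and 112 CPM in CCND2mut. All CCND2 libraries lay above Vec, with log2 fold changes of 0.60 in CCND2wt (adjusted p = 0.133) and 0.77 in CCND2mut (adjusted p = 0.0338, by edgeR), the latter 0.84 (adjusted p = 0.0465) without CCND2mut 2. The difference between the CCND2 groups was 0.17 and did not pass (adjusted p = 0.615). Casp8ap2, a component of the histone locus body, rose in both, by 0.70 and 0.53, and Ncbp2, the small subunit of the cap-binding complex, by 0.89 and 1.54. Without CCND2mut 2 the CCND2mut values were 0.60 and 1.61. Npat, the cyclin E-Cdk2 substrate that activates histone genes, was at 34.2 to 48.6 CPM in Vec, 43.6 to 48.6 CPM in CCND2wt and 39.7 to 42.6 CPM in CCND2mut and did not pass.

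Of 32 S phase and replication genes, Slbp among them, 25 rose and 0 fell in CCND2wt against Vec by edgeR (29 and 0 at an unadjusted p under 0.05; DESeq2 and limma-voom each called 28 higher and 0 lower), and 30 rose and 1 fell in CCND2mut against Vec (29 and 1 without CCND2mut 2). Their sum was 1886 to 2790 CPM in Vec, 4600 to 4792 CPM in CCND2wt and 4045 to 5610 CPM in CCND2mut. Among CCND2mut libraries its order was the reverse of that of the histone sum: CCND2mut 1 had the highest S phase sum and the lowest histone sum, and CCND2mut 2 the opposite. Mcm2, part of the replicative helicase, rose by 1.37 in CCND2wt and 1.81 in CCND2mut, and Prim1, the primase, by 1.89 and 1.01. Without CCND2mut 2 the CCND2mut values were 1.91 and 1.13. For CCND2mut against CCND2wt 2 rose and 4 fell (2 and 3 without CCND2mut 2), the latter including Tk1, thymidine kinase, at -1.24 (-1.02 without CCND2mut 2). The background there was 23.2% higher and 23.8% lower.

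Of 22 histone chaperones, 8 rose and 1 fell in CCND2wt and 10 rose and 5 fell in CCND2mut against Vec (10 and 4 without CCND2mut 2). The share that fell, in both comparisons, was not above that of all tested genes. Chaf1a and Chaf1b, subunits of the same assembly factor CAF-1, went apart: Chaf1a rose in both, from 30.1 CPM in Vec to 84.9 and 92.0 CPM, and Chaf1b was at 134 ± 3.39 CPM in CCND2wt, 108 ± 7.22 in Vec and 29.3 ± 10.6 in CCND2mut, a fall of -1.88 against Vec and -2.19 against CCND2wt (adjusted p = 0.000308 and 0.000161 by edgeR), or -1.67 and -2.01 without CCND2mut 2.

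Replacement histone variants can be made outside S phase, from polyadenylated RNA, though H2afx on this list also makes a stem-loop RNA in S phase. Of 12 tested, 5 rose and 2 fell in CCND2wt, and 5 rose and 4 fell in CCND2mut against Vec (5 and 3 without CCND2mut 2), where 26.9% of all tested genes fell. H2afx was among those that rose in both, from 80.3 to 121 CPM in Vec to 198 to 230 CPM in CCND2wt and 153 to 210 CPM in CCND2mut. The linker variant H1f0 was at 185, 172 and 285 CPM in Vec, at 705, 726 and 451 CPM in CCND2wt and at 511, 854 and 656 CPM in CCND2mut, above Vec in every CCND2 library. H2afj was at 47.9 to 60.5 CPM in Vec, 30.9 to 33.0 CPM in CCND2wt and 202 to 233 CPM in CCND2mut, so that it fell in one CCND2 group and rose in the other, by 2.03 and by 2.01 without CCND2mut 2. H1fx was at 30.4 to 36.9 CPM in CCND2wt and 1.94 to 5.38 CPM in CCND2mut, a log2 difference of -3.23 (adjusted p = 0.000526 by edgeR), and -3.28 (adjusted p = 0.00279) without CCND2mut 2.

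Markers of other marrow cells differed among groups and libraries. Of all tested genes, 24.9% were called higher and 26.9% lower in CCND2mut against Vec, and 23.2% and 23.8% against CCND2wt. Counts here and in the next paragraph stand beside these shares. All 6 leukocyte and progenitor markers were detected, with sums of 2202 to 5856 CPM. The 12 erythroid markers summed to 18529 CPM in Vec 1 and 1052 and 4678 CPM in Vec 2 and 4, to 1751 to 1943 CPM in CCND2wt and to 203 to 495 CPM in CCND2mut, and 8 fell in CCND2mut against Vec (5 without CCND2mut 2, 6 without Vec 1). The 12 markers of maturing neutrophils summed to 15511 CPM in Vec 1 and 616 and 718 CPM in Vec 2 and 4, to 158 to 276 CPM in CCND2wt and to 5970 to 21309 CPM in CCND2mut, with CCND2mut 1 the highest. Against CCND2wt 9 of them rose in CCND2mut (10 without CCND2mut 2). Against Vec 2 of the 12 rose, a share not above that of all tested genes, or 9 without Vec 1.

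The 10 mast cell and basophil markers summed to 7682 to 10500 CPM in Vec, 17097 to 17606 CPM in CCND2wt and, in CCND2mut, to the values given above, highest in the library with the highest histone sum. Against CCND2wt 3 of the 10 fell in CCND2mut, near the 23.8% of all tested genes. Without CCND2mut 2, 7 fell, where 23.2% of all tested genes did. Monocyte and macrophage markers, 10 genes, summed to 429, 60.2 and 74.8 CPM in Vec, 47.1 to 48.7 CPM in CCND2wt and 1157 to 4473 CPM in CCND2mut, and 4 rose in CCND2mut against CCND2wt (4 without CCND2mut 2). B cell markers summed to 351, 52.4 and 78.4 CPM in Vec, highest in Vec 1, to 25.8 to 28.7 CPM in CCND2wt and to 5.58 to 16.2 CPM in CCND2mut, and 9 of 9 tested fell in CCND2mut against Vec (8 of 10 without CCND2mut 2). T and NK cell markers summed to 43.1 to 111 CPM in Vec, 12.7 to 21.1 CPM in CCND2wt and 0.868 to 17.5 CPM in CCND2mut, and 4 of 5 tested fell in CCND2mut against Vec (6 of 7 without CCND2mut 2). No marker of these lists was at 0 in all libraries. In bulk samples fewer cells of a type and less RNA per cell cannot be told apart, and the part of cell makeup in the histone values was not tested.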

How the data were processed

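RNA sequencing of 9 bone marrow libraries was used. The authors deposited unscaled read counts for each gene. Per the labels' protocols total RNA came from TRIzol extraction and an NEBNext Ultra kit was used. Per the submitters' processing notes CASAVA 1.8, fastp, HISAT2 2.0.5, featureCounts 1.5.0-p3 and DESeq2 1.20.0 were used with mm10. Counts of 54532 genes were filtered (15660 tested), scaled by TMM and fitted over all 9 libraries in edgeR 4.0.16 (R 4.3.3; robust quasi-likelihood, 6 residual degrees of freedom), with Benjamini-Hochberg adjustment and a threshold of 0.05. Gene lengths were used as the file gives them. Symbols of 66 of 67 genes matched RefSeq. The members and lists were chosen with earlier results of these data known. Genes were named by a rule: the highest in each family, those called, those outside Hist1, and the leading list genes; Hist1h2ad, Hist1h2bf, Hist1h2ah and Hist1h3b were named after their values were seen. Alternatives were DESeq2 1.42.0, limma 3.58.1 (voom), other filters and scaling, a replicate block and leaving libraries out. The test was checked on simulated counts for CCND2wt against Vec alone. The changed genes there lay above the mean level of many histone genes, and no library stood apart. That check therefore does not cover genes with few reads or a library like CCND2mut 2.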

Additional observations from a re-analysis of the deposited data

How the results depend on the processing

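Counts of calls among the 48 tested histone genes stayed within 1.5 times under other size factors, DESeq2, limma-voom and the removal of haemoglobin, immunoglobulin and mitochondrial genes. For CCND2wt against Vec (8 calls), a filter at 50 reads left 4, fitting only the 2 groups gave 16, and leaving out single libraries gave 0 to 12. For CCND2mut against Vec (27 calls) these gave 7, 17 and 18 to 34. For CCND2mut against CCND2wt (4 calls) they gave 2, 7 and 1 to 6, and no filter gave 1. With the replicate block edgeR called 0, 16 and 1 in these comparisons (10, 24 and 2 at an unadjusted p under 0.05). The numbers were not shown to pair the libraries, since correlations of same-numbered deviations ran from -0.073 to 0.187. With alternatives chosen after seeing the data, summing the CCND2wt libraries to 1 sample left 0, 17 and 0 calls (9, 27 and 1 at an unadjusted p under 0.05), and leaving out CCND2mut 2 and Vec 1 gave 15, 16 and 4. The cause of these changes was not tested. By library totals without scaling, the 66 genes summed to 278 CPM in CCND2wt.

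Single-gene calls were lost in 162 values of the other alternatives and in 223 that leave out 1 library, and 1056 and 900 kept their side of the threshold. The values below turned in direction, and in the fit of all 9 libraries they were not called. Leaving out single libraries, Hist1h1c in CCND2wt against Vec ran from -0.54 to 0.058, Hist1h2bc from -0.29 to 0.66 in CCND2mut against Vec and from -0.75 to 0.23 against CCND2wt, and Hist3h2ba in CCND2mut against Vec from -1.21 to 1.33. Without CCND2mut 2 and Vec 1, Hist1h2bc was at -0.10 and Hist3h2ba at 0.48 in CCND2mut against Vec, and limma-voom put Hist3h2ba at 0.0025 there. With the replicate block Slbp was at -0.11 in CCND2mut against CCND2wt, from 0.17.

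At these depths a gene at 0.600 CPM had about 10 reads, which limits the precision of most single histone genes.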
